A study of Mus musculus with 4 samples.

Results

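Chemokines are small secreted proteins that guide leukocytes along a gradient, and the genes described here are 10 inflammatory chemokine genes of the mouse, 7 of the CXC class (Cxcl1, Cxcl2, Cxcl5, Cxcl9, Cxcl10, Cxcl14 and Cxcl16) and 3 of the CC class (Ccl2, Ccl5 and Ccl7). They were found by symbol, through the GENCODE M21 annotation of GRCm38, among the 55487 genes of a bulk RNA-seq count table, and each symbol matched 1 gene. The members were chosen by family and with their ovariectomy and sham expression values in view, so their levels, fold changes and calls in the fit over all genes are given as a description, with no p-value of their own, and nothing is supported with them. Cxcl12, a homeostatic niche factor, was not among them and is given below with the other ligands.

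The libraries were made from skeletal stem cells of wild-type (WT) mice, 2 from sham-operated and 2 from ovariectomized animals. Ovariectomy removes the ovaries and so most circulating oestrogen, and serves in mice as a model of bone loss after menopause. All 4 samples carry the time 8 weeks, without saying whether it is an age or a time after surgery. The cells of both groups had been freed from the long-bone metaphysis with collagenase, stained for CD200, CD51, 6C3, CD105, CD90, Tie2, CD45 and Ter119, and sorted by flow cytometry. Whether the libraries of 1 group stem from different animals is not stated, so p-values below rest on a spread between samples that may be only technical.

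The CXC and CC classes are named after the spacing of the first cysteines of the protein. Cxcl1, Cxcl2 and Cxcl5 carry a glutamate-leucine-arginine motif and draw neutrophils through the receptor Cxcr2. Cxcl9 and Cxcl10 lack that motif, are induced by interferons and act on T cells and NK cells through Cxcr3, while Ccl2 and Ccl7 mobilize monocytes through Ccr2. In bone, stromal and osteoblast-lineage cells are known sources of several of these proteins, and NF-kB is a shared activator of many of the genes.

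Promoters were available in the RefSeq table (GRCm38.p6) for 5 of the 10 genes, Cxcl1, Cxcl2, Cxcl9, Cxcl10 and Cxcl14. Of these, 4 are shown because they set genes with large differences between the groups (Cxcl1, Cxcl2 and Cxcl10) beside an abundant gene with a small one (Cxcl14). Each line runs 5′ to 3′ from 250 bases before to 50 bases after the transcription start. Capitals mark matches, on either strand, to the letters of NF-kB sites (GGG and TTCC with 3 bases between them, or 2 in the shorter form GGGNNTTCC) or of the interferon-stimulated response element (GAAA and GAAA with 2 bases between them).
Cxcl1: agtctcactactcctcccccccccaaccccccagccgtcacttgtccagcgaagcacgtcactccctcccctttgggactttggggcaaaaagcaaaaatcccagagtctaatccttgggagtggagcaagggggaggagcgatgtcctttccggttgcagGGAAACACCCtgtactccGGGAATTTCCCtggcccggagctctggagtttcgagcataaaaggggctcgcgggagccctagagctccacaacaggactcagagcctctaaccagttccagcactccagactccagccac
Cxcl2: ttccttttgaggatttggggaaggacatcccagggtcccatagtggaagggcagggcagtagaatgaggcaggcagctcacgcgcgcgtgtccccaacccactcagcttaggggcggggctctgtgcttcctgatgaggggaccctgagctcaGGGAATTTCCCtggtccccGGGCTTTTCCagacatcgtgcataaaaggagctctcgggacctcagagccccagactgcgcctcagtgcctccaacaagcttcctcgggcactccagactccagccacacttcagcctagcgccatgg
Cxcl10: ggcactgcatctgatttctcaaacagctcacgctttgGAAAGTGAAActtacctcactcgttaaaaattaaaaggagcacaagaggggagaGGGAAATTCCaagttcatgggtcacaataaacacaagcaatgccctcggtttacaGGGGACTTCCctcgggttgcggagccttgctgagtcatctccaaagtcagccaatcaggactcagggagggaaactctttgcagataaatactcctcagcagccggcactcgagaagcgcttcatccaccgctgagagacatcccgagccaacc
Cxcl14: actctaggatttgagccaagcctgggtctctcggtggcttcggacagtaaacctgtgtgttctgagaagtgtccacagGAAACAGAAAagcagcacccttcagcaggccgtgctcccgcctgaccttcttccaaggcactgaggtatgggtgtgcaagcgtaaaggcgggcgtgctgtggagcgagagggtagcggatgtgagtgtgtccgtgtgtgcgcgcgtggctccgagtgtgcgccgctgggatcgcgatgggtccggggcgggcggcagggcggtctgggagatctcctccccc

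The windows lie at chr5:90890995-90891294 (plus strand) for Cxcl1, chr5:90903649-90903948 (plus strand) for Cxcl2, chr5:92348840-92349139 (minus strand) for Cxcl10 and chr13:56296502-56296801 (minus strand) for Cxcl14. Cxcl1 and Cxcl2 both hold GGGAATTTCC, starting at -71 and -97 from the transcription start, and 0.0883% of the 32851 promoters in the table hold these exact letters on either strand. In both, a match on the opposite strand overlaps it, shifted by 1 base. Each has a further match to the 10-letter form nearby, GGGTGTTTCC at -89 on the opposite strand of Cxcl1 and GGGCTTTTCC at -78 in Cxcl2. Cxcl10 holds GGGAAATTCC at -159 and GGGGACTTCC at -104, where the match to GGGNNTTCC overlaps the longer one, and GAAAGTGAAA at -213. The promoter of Cxcl9 holds GGGATTTCC at -42 and GGGTTTTCC at -130, both matches to the 9-letter motif.

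None of the NF-kB letters is in the Cxcl14 window, which holds GAAACAGAAA at -172 and a match to the STAT letters TTCNNNGAA at -191, the only match to those letters among the 5 promoters. Of all promoters in the table, 5.56% hold the 10-letter NF-kB form, 5.82% the 9-letter form, 3.44% the interferon element and 8.30% the STAT letters, each on either strand. Among the 27 chemokine ligand genes with a promoter in the table, 7 hold the 10-letter NF-kB form, namely Cxcl1, Cxcl2, Cxcl10, Cxcl3, Ccl1, Ccl9 and Ccl20. A match is a description of letters and shows no binding, and the motifs were settled after matches in these windows had been seen.

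The 4 libraries held between 18291436 and 23721078 counts, so that 1 count is worth 0.0423 to 0.0519 CPM (counts relative to the TMM-scaled library total, the unit of all levels below). Itgav, which encodes the sorted antigen CD51, was at 70.4 and 67.3 CPM in the sham libraries against 69.0 and 72.0 CPM in the ovariectomy libraries. Ptprc, the leukocyte antigen CD45, was at 9.55 and 5.25 CPM in the sham libraries against 3.55 and 6.44 CPM in the ovariectomy libraries. Cd200, another antigen of the stain, fell (log2 fold change -0.73 ± 0.15 SE, edgeR adjusted p = 0.0462), a call lost with library totals (adjusted p = 0.0531). Tek, which encodes Tie2, had 5 and 124 counts in the sham libraries against 178 and 188 counts in the ovariectomy libraries and was not called (edgeR adjusted p = 0.474), though it was without sham 2 (adjusted p = 3.42e-05) and with no filter (adjusted p = 0.00617). Over all genes, edgeR called 716 of 17120 changed at an adjusted p under 0.05, 510 higher and 206 lower (718 and 156 with library totals). In bulk samples, more RNA per cell and more cells of an expressing type cannot be told apart.

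Of the 10 chemokine genes, 9 passed the filter on low counts, and 7 of these were called higher after ovariectomy and 0 lower, where edgeR called 4.18% of all genes tested, 2.98% higher and 1.2% lower. The genes called were Cxcl1, Cxcl2, Cxcl9, Cxcl10, Cxcl16, Ccl2 and Ccl7. Cxcl9 passed the filter only through the ovariectomy libraries, and Ccl5 did not pass. For 9 of the 10 genes both ovariectomy libraries lay above both sham libraries and for Cxcl5 both lay below, where 25.5% and 23.9% of all genes tested did so. The members were chosen with this contrast in view, and nothing is read from these counts.

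Other settings gave the same 7 members or fewer, beside these shares of all genes called higher. The count was 7 with library totals (4.19%), DESeq2 size factors (2.98%), upper-quartile scaling (2.79%), the DESeq2 test (5.39%) and no filter (3.08%). It was also 7 without sham 1 (4.62%), without sham 2 (6.64%) and with a replicate block (4.35%). With limma-voom (3.7%) and at a mean of at least 5 CPM (6.93%) it was 6, the gene lost being Cxcl9. Without ovariectomy 1 or without ovariectomy 2 all these calls were lost, and edgeR called none of the other genes either.

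**Figure D1:**
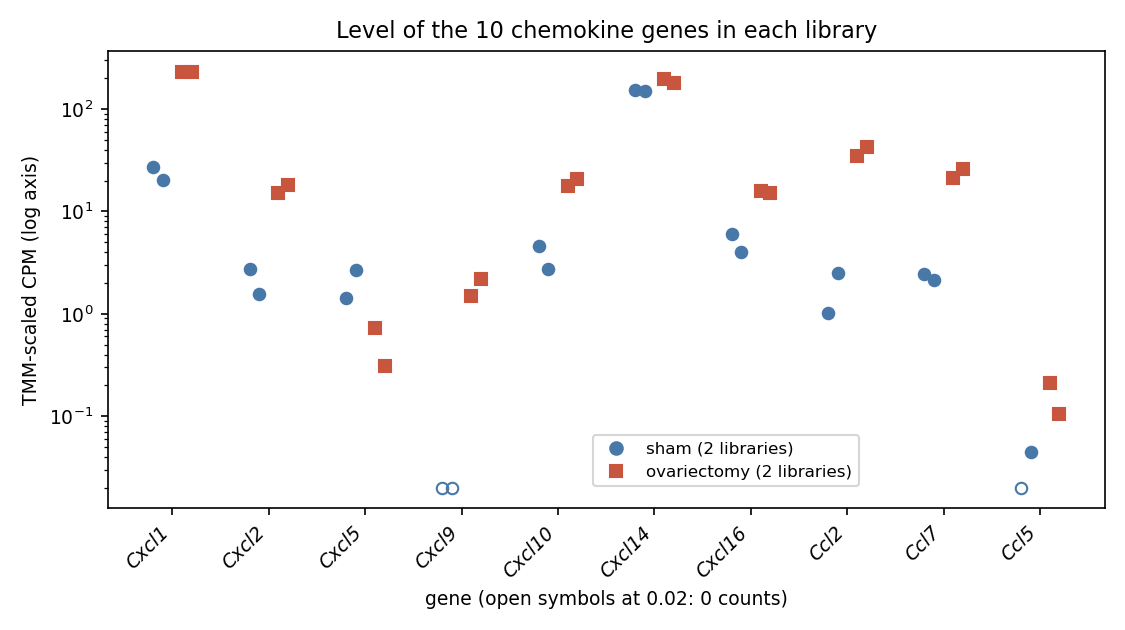
TMM-scaled CPM (log axis) of each of the 10 chemokine genes in the 2 sham libraries (circles) and the 2 ovariectomy libraries (squares), with open symbols for 0 counts. Cxcl14 is abundant in all 4 libraries, Cxcl1 reaches the same range after ovariectomy only, and Cxcl5 is the gene whose ovariectomy libraries lie below the sham libraries.

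Cxcl1 (ENSMUSG00000029380, chromosome 5, 90891241 to 90893115, plus strand, GRCm38), a neutrophil attractant, was at 27.0 and 20.2 CPM in the sham libraries against 230.2 and 233 CPM in the ovariectomy libraries. The means were 23.6 ± 4.82 and 231.5 ± 1.82 CPM (SD, n = 2 each), a ratio of 9.80 and a log2 fold change of 3.29 ± 0.17 (SE, edgeR, n = 2 per group). Both ovariectomy libraries were far above both sham libraries and close to each other.

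Cxcl2 (ENSMUSG00000058427, chromosome 5, 90903871 to 90905938, plus strand), a close paralogue with the same receptor, was at 2.77 and 1.56 CPM in the sham libraries against 15.2 and 18.2 CPM in the ovariectomy libraries, 7.73-fold by the means (log2 fold change 2.95 ± 0.35 SE). It starts 10755 bases after the end of Cxcl1. Per kb of annotated exon, Cxcl1 exceeded Cxcl2 by 10.8-fold and 14.3-fold in sham and by 16.7-fold and 14.1-fold in the ovariectomy libraries, so the ratio overlapped between the groups, whereas the levels of each gene did not. Of the 50-base stretches of Cxcl2 transcripts, 5.84% are shared with Cxcl3, and a read that lies within such a stretch does not tell these genes apart.

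Cxcl5 (ENSMUSG00000029371, chromosome 5, 90759360 to 90761624, plus strand), another ligand of Cxcr2, took the other direction in the same libraries. Its counts were 32 and 60 in the sham libraries against 17 and 6 in the ovariectomy libraries, or 1.43 and 2.67 CPM against 0.719 and 0.312 CPM. The groups did not overlap, and the log2 fold change of -1.97 ± 0.81 (SE) was not called over all genes. Its level was low in both groups, and the counts carry a large counting error.

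Cxcl9 (ENSMUSG00000029417, chromosome 5, 92321347 to 92328079, minus strand), a T-cell attractant induced by interferon gamma, had 0 counts in both sham libraries and 35 and 42 counts in the ovariectomy libraries. At 1.48 and 2.18 CPM it was at least 13.7-fold higher than a floor of 3 counts per sham library. This gene lost its call with limma-voom, and a mean of at least 5 CPM removes it. Its sham level is known only to lie under that floor.

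Cxcl10 (ENSMUSG00000034855, chromosome 5, 92346638 to 92348889, minus strand), its neighbour at a distance of 18558 bases and a ligand of the same receptor, was at 4.55 and 2.76 CPM in the sham libraries against 17.7 and 20.6 CPM in the ovariectomy libraries. The ratio of means was 5.24 and the log2 fold change 2.39 ± 0.32 (SE). In the ovariectomy libraries, where both were counted, Cxcl10 exceeded Cxcl9 by 16.0-fold and 12.7-fold per kb of exon, and by 31.6-fold and 25.0-fold per kb of the main transcript. Cxcl10 shares 5.91% of its exon length with Art3.

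Cxcl16 (ENSMUSG00000018920, chromosome 11, 70453983 to 70459984, minus strand) encodes a membrane-bound chemokine that is shed by metalloproteases and binds Cxcr6. It was at 6.07 and 4.05 CPM in the sham libraries against 15.8 and 15.3 CPM in the ovariectomy libraries, 3.07-fold by the means (log2 fold change 1.62 ± 0.29 SE). This was the smallest log2 fold change among the 7 genes called. Zmynd15 overlaps 18.3% of its exon length, and reads in that part cannot be told apart without a stated strand.

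Cxcl14 (ENSMUSG00000021508, chromosome 13, 56288643 to 56296551, minus strand), a chemokine of epithelia and stroma that is expressed without an inflammatory stimulus in many tissues, had the highest level per kb of the 10 genes in sham cells. It was at 155 and 152 CPM in the sham libraries against 195 and 179 CPM in the ovariectomy libraries. The groups did not overlap, and the log2 fold change of 0.29 ± 0.12 (SE) was not called.

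Ccl2 (ENSMUSG00000035385, chromosome 11, 82035571 to 82037453, plus strand), the main monocyte attractant, had the largest log2 fold change of the called genes that had counts in both sham libraries. It was at 1.03 and 2.49 CPM in the sham libraries against 34.9 and 42.6 CPM in the ovariectomy libraries (ratio of means 22.0, log2 fold change 4.46 ± 0.39 SE). In relative terms, though not in CPM, the sham libraries lay further apart than those of the other called genes with sham counts. The log2 fold change ran from 3.96 to 5.24 over the alternatives. In every one of these it stayed positive.

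Ccl7 (ENSMUSG00000035373, chromosome 11, 82045712 to 82047525, plus strand), another ligand of Ccr2, starts 8258 bases after the end of Ccl2. Its level was 2.45 and 2.14 CPM in the sham libraries against 21.4 and 26.1 CPM in the ovariectomy libraries (ratio of means 10.3, log2 fold change 3.37 ± 0.27 SE). Per kb of exon, Ccl2 stood at 0.294 and 0.821 of Ccl7 in the sham libraries against 1.15 of it in both ovariectomy libraries. With main transcript lengths the same ratio was 0.412 and 1.15 in sham and 1.61 in both ovariectomy libraries, so which gene was the higher in sham 2 depends on the length used.

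Ccl5 (ENSMUSG00000035042, chromosome 11, 83525778 to 83530518, minus strand), a product of T cells and platelets, was too low to test. It had 0 and 1 counts in the sham libraries against 5 and 2 counts in the ovariectomy libraries. The pooled ratio of 7.32 has a 95% counting interval of 0.941 to 330.0 (exact binomial), which includes 1. Such intervals cover counting error only.

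The order of the genes by CPM per kb of exon differed between the groups. In sham cells Cxcl14 led with 83.9 ± 1.13 CPM per kb (SD, n = 2), followed by Cxcl1 with 12.6 ± 2.57 and Ccl7 with 2.87 ± 0.28. Cxcl16, Cxcl10, Ccl2, Cxcl5 and Cxcl2 followed between 1.68 and 1.05 CPM per kb, and in this run each gene overlapped the next in its 2 libraries. Ccl5 and Cxcl9 came last and also overlapped.

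In ovariectomy cells Cxcl1 led with 123 ± 0.971 CPM per kb, ahead of Cxcl14 with 102 ± 6.18, and the libraries of these genes did not overlap. Ccl2 with 34.1 ± 4.82 and Ccl7 with 29.6 ± 4.13 CPM per kb overlapped each other, as did Cxcl10 with 8.51 ± 0.912 and Cxcl2 with 8.08 ± 1.04. Cxcl16 followed with 5.14 ± 0.117 and Cxcl9 with 0.607 ± 0.165, each apart from the next, and Cxcl5 and Ccl5 overlapped at the end. The annotated exons of Cxcl1 include a transcript with retained introns. With the length of the main transcript in place of all exons, an alternative chosen after seeing the data, Cxcl1 was at 2.38 times the level of Cxcl14 in ovariectomy cells in place of 1.21 times, and at 0.296 times in place of 0.150 times in sham cells. With these lengths Cxcl10, at 3.34 CPM per kb, took the third place in sham ahead of Ccl7 at 2.87, Ccl2, Cxcl2, Cxcl16 and Cxcl5 followed in that order, and the order in ovariectomy cells was the same as before.

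Summed over the 10 genes, the level was 200 and 188 CPM in the sham libraries against 532 and 537 CPM in the ovariectomy libraries. Cxcl14 held 77.3% and 80.8% of that sum in the sham libraries against 36.6% and 33.3% in the ovariectomy libraries. Cxcl1 held 13.5% and 10.8% in the sham libraries against 43.2% and 43.4% in the ovariectomy libraries, and Ccl2 0.513% and 1.33% against 6.55% and 7.94%. The makeup of the summed CPM thus moved from Cxcl14 towards Cxcl1 and Ccl2, while the log2 fold change of Cxcl14 itself was 0.29.

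**Figure D2:**
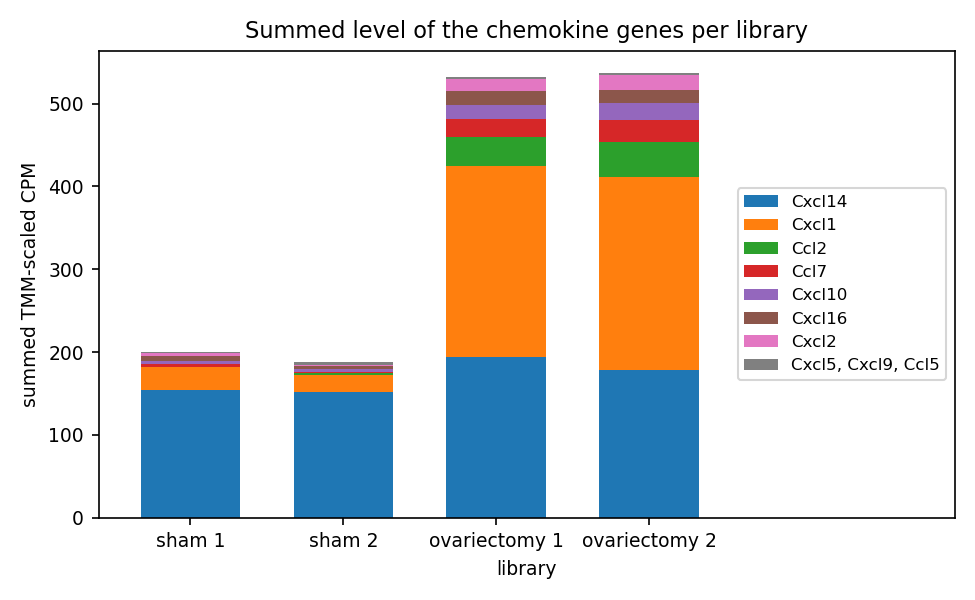
Summed TMM-scaled CPM of the 10 chemokine genes in each of the 4 libraries, stacked by gene, with Cxcl5, Cxcl9 and Ccl5 drawn together. The bars reach 200 and 188 CPM in the sham libraries against 532 and 537 CPM in the ovariectomy libraries, and most of the added height is Cxcl1.

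Of the 10 genes, 8 lie within 4 groups of chemokine genes on chromosomes 5 and 11, and their neighbours allow a comparison within short stretches of the genome. The first group on chromosome 5 (90759360 to 90905938) holds 7 ligands in the order Cxcl5, Ppbp, Pf4, Cxcl3, Cxcl15, Cxcl1 and Cxcl2. Ppbp and Pf4, which encode platelet chemokines, had 24 and 81 and 13 and 58 counts in sham 1 and 2, and 4 and 7 and 8 and 5 counts in the ovariectomy libraries. Neither was called (edgeR adjusted p = 0.130 and 0.288), and both lay lower in both ovariectomy libraries than in both sham libraries, as did Cxcl5 beside them.

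Cxcl3, whose promoter also holds GGGAATTTCC, had 16 and 9 counts in the sham libraries against 16 and 15 in the ovariectomy libraries (log2 fold change 0.38 ± 0.98 SE, edgeR adjusted p = 0.909). In ovariectomy cells Cxcl1 and Cxcl2, at the end of this group, had the highest levels in it per kb of exon. In the second group on chromosome 5, Cxcl11, the third ligand of Cxcr3, was counted 0 times in sham and, of the ovariectomy libraries, 7 times in the second alone. Cxcl11 shares 41.7% of its exon length with Gm2673.

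In the first group on chromosome 11, Ccl11 (eotaxin, an eosinophil attractant) was counted 5 and 11 times in the sham libraries against 17 and 37 times in the ovariectomy libraries and was not called (edgeR adjusted p = 0.401). Ccl12 had 0 counts in all 4 libraries. Ccl8, too low to test, had 0 counts in the sham libraries against 7 and 12 in the ovariectomy libraries. In ovariectomy cells the levels of Ccl2 and Ccl7 per kb of exon stood far above those of these neighbours. In the second group on chromosome 11, which holds Ccl5, the macrophage and granulocyte chemokines Ccl3, Ccl4, Ccl6 and Ccl9 were all at or below 2.85 CPM in every library, and none was called.

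**Figure D3:**
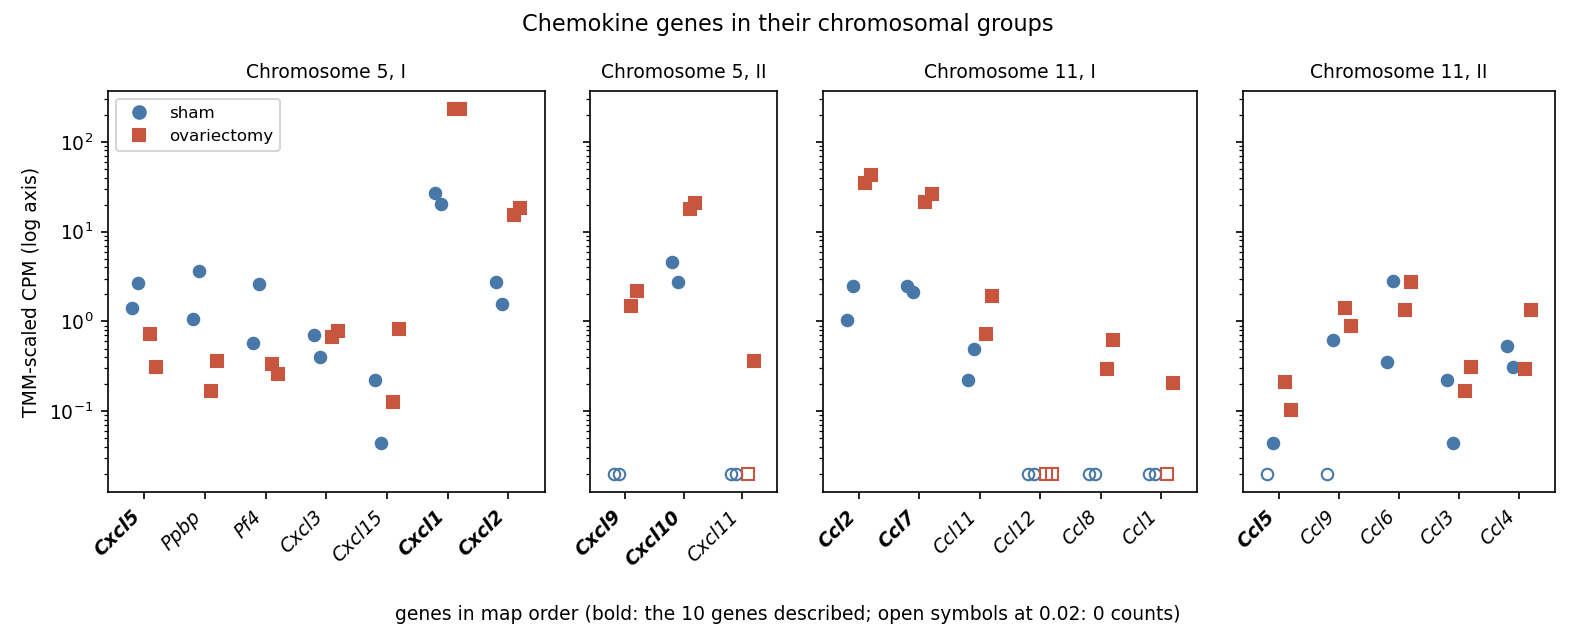
TMM-scaled CPM (log axis) of the chemokine ligand genes in 4 chromosomal groups, in map order, for the sham (circles) and ovariectomy (squares) libraries. In bold are the genes described, and open symbols stand for 0 counts. Cxcl1 and Cxcl2 stand far above their neighbours after ovariectomy, and so do Ccl2 and Ccl7, while Cxcl5, Ppbp and Pf4 lie lower in the ovariectomy libraries.

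The other ligands of the family were read from lists that did not include the 10 genes. These lists and all lists below were chosen with earlier results of these data known, so their counts are a description. Each count stands beside the shares over all genes tested, of which edgeR called 2.98% higher and 1.2% lower. In either direction, DESeq2 called 1406 and limma-voom 947 of the 17120 genes tested. By edgeR, 3154 of these genes had an unadjusted p under 0.05. Of 8 other CXC ligands, 4 were tested, and 1 rose and 0 fell. The gene that rose was Cxcl12, the niche factor that retains blood stem cells, at 83.3 and 139 CPM in the sham libraries against 232 and 334 CPM in the ovariectomy libraries (log2 fold change 1.35 ± 0.27 SE, edgeR adjusted p = 0.0382). Of 20 CC, CX3C and XC ligands, 7 were tested and 0 were called by edgeR, DESeq2 or limma-voom (1 at an unadjusted p under 0.05). The most abundant of these per kb of exon was Cx3cl1 (fractalkine), a membrane-bound chemokine, at 78.6 and 69.6 CPM in the sham libraries against 98.0 and 106 CPM in the ovariectomy libraries (log2 fold change 0.46 ± 0.13 SE, edgeR adjusted p = 0.118).

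The receptors that signal for these ligands had low counts in all libraries. Of 18 signalling chemokine receptors, 5 passed the filter and 0 were called by edgeR, DESeq2 or limma-voom (0 at an unadjusted p under 0.05), and their summed level was 8.52 and 8.42 CPM in the sham libraries against 6.60 and 8.47 CPM in the ovariectomy libraries. Cxcr2, the receptor of Cxcl1, Cxcl2 and Cxcl5, had 0 and 13 counts in the sham libraries against 16 and 10 in the ovariectomy libraries. Cxcr3, the receptor of Cxcl9 and Cxcl10, had 12 and 2 counts in the sham libraries against 0 in both ovariectomy libraries, and Cxcr6 had 0 in all libraries but ovariectomy 2, with 4. Ccr2, the receptor of Ccl2 and Ccl7, had 9 and 1 counts in the sham libraries against 53 and 14 in the ovariectomy libraries (edgeR adjusted p = 0.305). Ccr1, a receptor of Ccl5 and Ccl7, stood between 1.06 and 3.97 CPM (edgeR adjusted p = 0.681).

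Atypical receptors bind chemokines without classical G-protein signalling and remove them from the surroundings. Of 5 such genes, 2 rose and 0 fell. Ackr2, which takes up inflammatory CC chemokines, Ccl2 among them, was at 23.4 and 22.5 CPM in the sham libraries against 62.9 and 79.4 CPM in the ovariectomy libraries (log2 fold change 1.63 ± 0.17 SE, edgeR adjusted p = 0.00453). Ackr3, which takes up Cxcl12, was at 84.5 and 88.6 CPM in the sham libraries against 334 and 350 CPM in the ovariectomy libraries (log2 fold change 1.98 ± 0.12 SE, edgeR adjusted p = 0.000608).

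Per kb of exon, both stood above every signalling receptor in all 4 libraries. Ackr1, the receptor of endothelium and red cells, had 3 and 2 counts in the sham libraries against 12 and 14 counts in the ovariectomy libraries and was not called (edgeR adjusted p = 0.359). Ackr4 and Ccrl2 were not called either (edgeR adjusted p = 0.987 and 0.392).

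Of 16 NF-kB subunits, kinases and inhibitors, 6 rose and 0 fell, where 2.98% of all genes tested were called higher and 1.2% lower. Their median log2 fold change was 0.55, against -0.02 over all genes tested. Nfkbia, the inhibitor that NF-kB itself induces, was at 383 and 469 CPM in the sham libraries against 1026 and 1063 CPM in the ovariectomy libraries (log2 fold change 1.29 ± 0.13 SE, edgeR adjusted p = 0.00434). Tnfaip3 (A20), another feedback inhibitor, was at 21.1 and 20.5 CPM in the sham libraries against 60.6 and 85.1 CPM in the ovariectomy libraries (log2 fold change 1.81 ± 0.19 SE, edgeR adjusted p = 0.00482). Rela, the p65 subunit, had a log2 fold change of 0.85 ± 0.12 (SE, edgeR adjusted p = 0.0114) and Nfkbiz, a nuclear cofactor, one of 0.86 ± 0.12 (SE, edgeR adjusted p = 0.0108). The other genes called were Nfkbie and Bcl3, which both belong to the inhibitor family.

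Of 13 interferon receptors, kinases and transcription factors, 1 rose and 0 fell by edgeR, with a median log2 fold change of 0.29. In either direction, 2 were called by DESeq2 and by limma-voom, which called 1406 and 947 of all 17120 genes tested. The gene that rose was Irf1, which acts on Cxcl9 and Cxcl10 among others, at 259 and 242 CPM in the sham libraries against 555 and 551 CPM in the ovariectomy libraries (log2 fold change 1.14 ± 0.11 SE, edgeR adjusted p = 0.00417). Of 12 receptors and adaptors for the cytokines and danger signals that induce chemokines, 2 rose and 0 fell, with a median of 0.27, and 4 were called by DESeq2. Tlr2, a receptor of bacterial lipoproteins, was at 17.7 and 23.7 CPM in the sham libraries against 52.1 and 73.1 CPM in the ovariectomy libraries (edgeR adjusted p = 0.0111). Il17ra, a receptor chain for interleukin 17, had a log2 fold change of 0.80 ± 0.16 (SE, edgeR adjusted p = 0.0398), which was not called with upper-quartile scaling (adjusted p = 0.0520). Tnfrsf1a, the main receptor of TNF, was at 144 and 155 CPM in the sham libraries against 178 and 171 CPM in the ovariectomy libraries and was not called (edgeR adjusted p = 0.397).

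**Figure D4:**
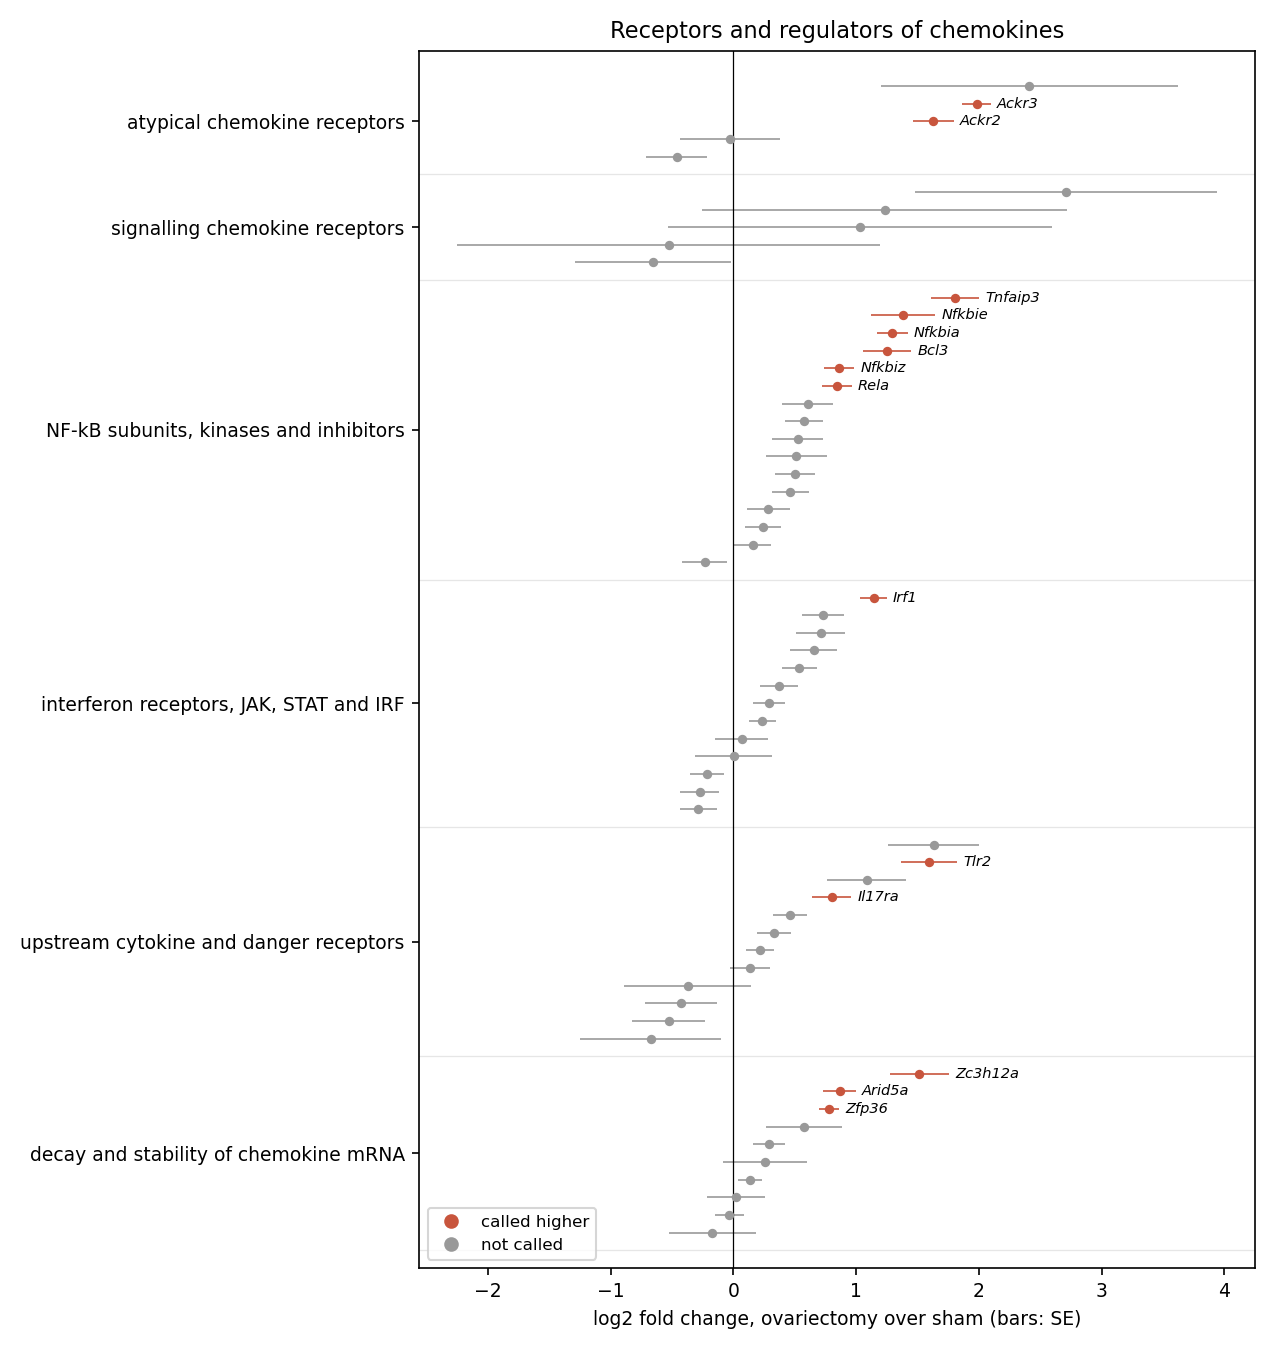
Log2 fold change (ovariectomy over sham, bars are SE) of the tested genes of 6 lists of receptors and regulators, with genes called higher in red and named, and genes not called in grey. Ackr2, Ackr3 and 6 NF-kB genes were called higher, and no signalling chemokine receptor was called.

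Chemokine mRNAs are known to be short-lived, and proteins such as Zfp36 (tristetraprolin) bind AU-rich elements of the 3' untranslated region and speed their decay. By the main transcript of each gene in GENCODE M21, Cxcl1 holds 7 copies of ATTTA in 592 bases of 3' untranslated region and Cxcl2 holds 11 in 734 bases. Of the other genes Cxcl5 holds 5, Cxcl9 holds 3, Ccl7, Cxcl10 and Cxcl16 hold 2 each, Ccl2 holds 1, and Ccl5 and Cxcl14 hold 0, the latter in 1149 bases. The longer element TTATTTATT, found in 7.14% of 20689 protein-coding genes, is in Cxcl1 at 2 places and in Cxcl2 at 4, and in none of the other 8. ATTTA alone is in 62.8% of those genes, whose median untranslated length is 850.0 bases. To show its setting, 1 copy each is given on the transcribed strand, with the element in capitals, from chr5:90892616-90892642 for Cxcl1 and from chr5:90905317-90905343 for Cxcl2, both on the plus strand of GRCm38 and in the 3' untranslated region.
Cxcl1: tttatgtatTTATTTATTccacaaagt
Cxcl2: agagttcacTTATTTATTtatctatgt

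Of 10 genes that set the decay or stability of such mRNAs, 3 rose and 0 fell, with a median log2 fold change of 0.27. Zfp36 was abundant in all libraries, at 3488 and 3340 CPM in the sham libraries against 5919 and 5803 CPM in the ovariectomy libraries (log2 fold change 0.78 ± 0.08 SE, edgeR adjusted p = 0.00482). Zc3h12a (regnase-1), a nuclease of inflammatory mRNAs, had a log2 fold change of 1.52 ± 0.24 (SE, edgeR adjusted p = 0.0173), and Arid5a, which stabilizes such mRNAs, one of 0.87 ± 0.13 (SE, edgeR adjusted p = 0.0155). Destabilizing and stabilizing factors were thus both among the genes that rose.

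Of 10 proteases that cleave or shed chemokines, 2 rose and 1 fell by edgeR. DESeq2 called 5 of them in either direction, and 1406 of all 17120 genes tested. Elane and Ctsg, granule proteases of neutrophils, rose, with 45 and 13 and 0 and 0 counts in the sham libraries against 254 and 231 and 23 and 69 counts in the ovariectomy libraries (edgeR adjusted p = 0.0237 and 0.0443, and 0.176 for Ctsg with limma-voom). Ctsg passed the filter on low counts only through the ovariectomy libraries. Mmp9, a gelatinase that also trims CXC chemokines, fell from 47.6 and 106 CPM in sham to 17.6 and 23.8 CPM in the ovariectomy libraries (log2 fold change -1.90 ± 0.36 SE, edgeR adjusted p = 0.0341). Adam10 and Adam17, the enzymes that shed Cxcl16 and Cx3cl1, were not called (edgeR adjusted p = 0.126 and 0.380).

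Markers of other cell types moved with the chemokine genes in part, and their part in these results was not tested. The marker counts stand beside the same shares, 2.98% of all genes tested called higher by edgeR and 1.2% lower. Of the 17120 genes tested, 3154 had an unadjusted p under 0.05 by edgeR. DESeq2 called 1406 and limma-voom 947 in either direction. Of 10 monocyte and macrophage markers, 8 were tested and 0 were called by edgeR (4 at an unadjusted p under 0.05, 2 by DESeq2 and 0 by limma-voom), with a summed level of 65.7 and 77.8 CPM in the sham libraries against 104 and 142 CPM in the ovariectomy libraries. Of 10 neutrophil markers 1 was called higher, Elane, and their sum was 143 and 91.3 CPM in the sham libraries against 137 and 188 CPM in the ovariectomy libraries. The 11 lymphocyte markers, of which 5 were tested, had sums of 6.07 and 7.12 against 11.7 and 18.4 CPM, and Cd8a had 0 counts in all libraries. The 7 general leukocyte markers, with 0 called by edgeR, DESeq2 or limma-voom (1 at an unadjusted p under 0.05), summed to 66.2 and 61.6 CPM in the sham libraries against 66.2 and 73.3 CPM in the ovariectomy libraries.

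Of 9 dendritic cell markers 6 were tested and 0 were called by edgeR, DESeq2 or limma-voom (0 at an unadjusted p under 0.05), with sums between 14.9 and 18.4 CPM. Of 10 megakaryocyte and platelet markers 8 were tested and 0 were called by edgeR, DESeq2 or limma-voom (2 at an unadjusted p under 0.05), with sums between 11.3 and 30.2 CPM.

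Of 10 markers of skeletal stem and stromal cells 2 were called higher (Prrx1 and Pdgfra) and 2 lower (Cd200 and Col2a1). Both ovariectomy libraries lay above both sham libraries for 2 and below for 6 (25.5% and 23.9% of all genes tested). The sums were 142500 and 160200 CPM in sham against 107200 and 99420 CPM. Most of each was Col2a1, at 73170 and 65390 against 40260 and 36880 CPM, and Col1a1 (not called), at 62490 and 88750 against 61080 and 57190 CPM. Of 10 pericyte and smooth muscle markers 3 were called higher and 0 lower. Their sum was 311 and 343 CPM in the sham libraries against 588 and 638 CPM in the ovariectomy libraries. Most of the added sum was Rgs5, at 5.665 and 46.44 CPM in sham against 294.7 and 360.8 CPM. Both ovariectomy libraries lay above both sham libraries for 6 of these markers, where 25.5% of all genes tested lay above and 23.9% below. They lay below for 1, Cspg4, at 283.5 and 266.2 CPM in sham against 214.5 and 221.6 CPM. Of 10 fibroblast markers 5 were called higher (Dpt, Pi16, Cd34, Ly6a and Ly6c1) and 1 lower (Fmod), with sums of 7598 and 10160 against 8325 and 8918 CPM. Most of each sum was Dcn and Fmod, so the sums say little of the genes called higher. Dcn, not called, was at 4033 and 6380 CPM in sham against 5536 and 6181 CPM. Fmod was at 3496 and 3666 against 2368 and 2313 CPM. Of 10 erythroid markers 9 were tested and 5 were called higher, with sums of 45.6 and 35.5 against 172 and 257 CPM. Of these 5, Klf1 (4 and 0 against 98 and 177 counts) and Rhag (0 and 0 against 48 and 145 counts) passed the filter only through the ovariectomy libraries. The same holds for Car1 (3 and 16 against 1213 and 1676 counts), which made up 51.29 and 87.05 CPM of the ovariectomy sums. The 10 endothelial markers, with 0 called by edgeR, DESeq2 or limma-voom (1 at an unadjusted p under 0.05), summed to 22.6 and 66.7 CPM in the sham libraries against 55.4 and 84.0 CPM in the ovariectomy libraries.

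The pattern of Cxcl1 over the 4 libraries was set beside that of other genes at or above 5 CPM on average. The measure was the Euclidean distance between log2 levels (CPM plus 0.5), each taken from its own mean. The tested genes at that level numbered 10087, Cxcl1 included, and the chemokine genes among them were left out of the ranking. Outside the 10 chemokine genes, the nearest were Il6, Sema3a, Gpnmb and Tnfaip2, at distances of 0.224, 0.276, 0.318 and 0.319. Il6, the inflammatory cytokine, was at 5.22 and 4.01 CPM in the sham libraries against 48.5 and 41.1 CPM in the ovariectomy libraries, and Tnfaip2, a gene induced by TNF, at 5.13 and 4.85 against 51.0 and 44.5 CPM. Sema3a, a secreted guidance protein, was at 4.59 and 3.96 CPM in the sham libraries against 45.2 and 55.3 CPM in the ovariectomy libraries. Gpnmb, a membrane glycoprotein, was at 11.1 and 9.97 against 85.7 and 94.7 CPM. With 4 libraries such a distance describes the size of the difference between groups and little else.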

How the data were processed

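The authors deposited raw read counts per Ensembl gene for the 4 libraries. The submitters' processing notes list featureCounts 2.0.1, Trim Galore 0.6.6 and the build GRCm38 (mm10). For the aligner, annotation release and strand setting, the sources used here give nothing. GENCODE M21 (GRCm38) gave a symbol for 55227 of 55487 genes. Genes were filtered with filterByExpr, which kept 17120, scaled by TMM and compared in R 4.3.3 with edgeR 4.0.16 (quasi-likelihood F test, 2-sided; group alone; Benjamini-Hochberg over all genes; called at an adjusted p under 0.05). The SE is the log2 fold change divided by the square root of F. The common biological coefficient of variation was 0.317. Fold ratios are of mean CPM. The test was tried on simulated data. The alternatives were other scalings, DESeq2 1.42.0, limma-voom (limma 3.58.1), other filters, leaving out each library and a replicate block.

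The members and all gene lists were chosen with earlier results of these data known. Genes named are the 10 chemokine genes and up to 4 called genes of each list by smallest p (or the 2 with the smallest p). Also named are 15 fixed receptors, ligands, regulators and sort antigens, and the 4 genes outside the members nearest to Cxcl1. Cxcl3, Cxcl11, Ppbp, Pf4, the Ccl genes beside the members, Ackr4, Ccrl2, Nfkbie and Bcl3 were named after their values were seen. So were Tnfrsf1a, Adam10, Adam17, Cd8a, Prrx1, Pdgfra, Col1a1, Col2a1, Klf1, Rhag, Car1, Rgs5 and Cspg4. The same holds for the fibroblast markers Dpt, Pi16, Cd34, Ly6a, Ly6c1, Fmod and Dcn. Single-gene results for 1 of the fixed receptors and 1 lymphocyte marker are not reported here.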

Additional observations from a re-analysis of the deposited data

How the results depend on the processing

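Of the 10 chemokine genes, 7 were called, and 7 with library totals, DESeq2 size factors, upper-quartile scaling, the DESeq2 test, no filter, the replicate block, and without sham 1 or sham 2; 6 were called with limma-voom and 6 at a mean of at least 5 CPM. Without either ovariectomy library all of these calls were lost (edgeR), where the lone library is assumed to vary as the sham libraries do. Over all genes 716 were called, and 1406 with the DESeq2 test, 1656 with no filter, 1105 at a mean of at least 5 CPM and 0 to 1835 without 1 library (0 without either ovariectomy library, where 1788 and 1618 genes had an unadjusted p under 0.05, 1290 without sham 1 and 1835 without sham 2); the cause was not tested. All list calls above were likewise lost without either ovariectomy library. Every tested member kept its sign in every alternative that could be fitted for it. Itgav turned from a log2 fold change of 0.03 to -0.0095 with upper-quartile scaling. Replicate numbers are shared between the groups. The difference between replicates 1 and 2 in sham had a correlation of 0.0043, over genes, with that in ovariectomy. Whether same-numbered libraries share a batch cannot be told from 4 libraries, and the replicate block called 1074 genes. Beside the losses without an ovariectomy library, list counts moved by over 1.5 times as follows. Interferon genes called higher (1) were 4 with no filter and 2 with limma-voom, library totals, the DESeq2 test, a mean of at least 5 CPM or without either sham library. Upstream receptors called higher (2) were 5 with no filter, 4 with the DESeq2 test or without either sham library, and 1 with upper-quartile scaling. Proteases called higher (2) were 6 with no filter, 4 with the DESeq2 test, the replicate block or without sham 2, and 1 with limma-voom. In each ligand list 1 gene was added without a sham library, a CXC ligand called lower without sham 1 and a CC, CX3C or XC ligand called higher without sham 2. With main transcript lengths, chosen after seeing the data, Cxcl1 over Cxcl14 was 0.296 in sham and 2.38 in ovariectomy cells, Cxcl10 over Cxcl9 31.6 and 25.0 in the ovariectomy libraries, and Ccl2 over Ccl7 turned to 1.15 in sham 2. Depth limits Cxcl5, Cxcl9 and Ccl5, with at most 60 counts in any library.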
